A study of Mus musculus with 8 samples.

Results

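The 52 genes described here carry a cell through its division cycle: the cyclins and cyclin-dependent kinases, the RB and E2F factors, the machinery that copies the DNA and the machinery that separates the copies. They were taken from the deposited expression table by gene symbol, from a list chosen with earlier results of these data known. All 52 were among the 17518 listed genes, all 52 had a count in every library, and all 52 were among the 11911 genes that passed the filter on low counts. The study made particles that sense reactive oxygen species, to image and treat acute lung injury by acting on alveolar macrophages. Messenger RNA came from MH-S, a line of mouse alveolar macrophages that was made permanent with a viral oncogene and divides in culture. The 8 libraries fell into 3 groups: LPS+RCMNs cells (n = 3), LPS cells (n = 2) and control cells (n = 3). LPS is lipopolysaccharide of the bacterial outer membrane, which macrophages sense as a sign of infection, RCMNs are the nanoparticles, and the controls had phosphate-buffered saline. The combined treatment was 100 ng/mL LPS with 1 µg/mL RCMNs, and the dose of LPS alone and the length of treatment were not stated. All groups share the 1 cell line, and cells given RCMNs without LPS were not analysed here. Whether replicates came from separate cultures is not stated, so p-values reflect only the spread among these libraries, and that spread may be technical.

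In a dividing cell, D-type cyclins bind the kinases Cdk4 and Cdk6 and phosphorylate the retinoblastoma protein Rb1, which releases E2F factors to switch on genes for DNA replication. Cyclin E with Cdk2 completes the step into S phase, the Mcm helicase opens the DNA at licensed origins, and the factors Mybl2 and Foxm1 then raise the genes of mitosis, many of which carry a CHR element (cell cycle genes homology region) beside a CCAAT box. Alveolar macrophages renew themselves by division in the lung, and LPS is known to hold back the division of primary mouse macrophages driven by growth factor. The large T antigen that made MH-S cells permanent is known to bind Rb1.

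Library sizes ran from 18.6 to 21.2 M (mega) counts. Levels are given as CPM, counts per M of the library size after scaling, and fold changes as log2 values with their standard error (SE). Tests are edgeR's quasi-likelihood tests with p-values adjusted by Benjamini and Hochberg over all 11911 genes. A gene was called at an adjusted p below 0.05. Because LPS cells enter both comparisons with LPS, the fold changes of LPS+RCMNs versus LPS and of LPS versus control share those 2 libraries, and opposite signs in them are not independent. The LPS libraries differed from the rest by gene length. Against the control mean, the shortest 10% of genes had median log2 levels between -0.06 and 0.10 in the LPS+RCMNs libraries and of 1.24 and 1.25 in the LPS libraries. The longest 10% had medians between -0.13 and -0.02 in the LPS+RCMNs libraries and of -1.04 and -0.94 in the LPS libraries. Erythroid markers summed to 30.4, 0.861 and 34.3 CPM in LPS+RCMNs cells, to 4359 and 5624 CPM in LPS cells and to 1.17, 20.9 and 20.6 CPM in control cells. These sums took in all 9 listed genes, of which 5 were tested. The summed macrophage markers were 6459 to 8081 CPM in LPS+RCMNs cells, 5272 to 6440 CPM in LPS cells and 4923 to 5798 CPM in control cells, with 11 of 16 tested. On that list, Lyz2, Cd68, Csf1r, Itgam and Adgre1 each held at least 288 CPM in every library, but Siglecf, Chil3, Pparg, Ear2 and Car4, which mark alveolar macrophages, did not exceed 0.506 CPM in any. The macrophage list did not move as 1. In LPS against control cells Csf1r, Itgam, Mrc1, Ptprc and Mertk were called lower and Adgre1, Lyz2 and Cd68 higher. Itgax, Marco and Fcgr1 were not called there. Against LPS cells, LPS+RCMNs cells had Cd68 lower, Lyz2 not called and the other tested markers higher. Neutrophil markers summed to 4.12, 4.51 and 4.85 CPM in LPS+RCMNs cells, 18.4 and 38.7 CPM in LPS cells and 2.30, 3.58 and 4.55 CPM in control cells. The 3 tested of that list of 8, S100a8, S100a9 and Cxcr2, were each called lower in LPS+RCMNs than in LPS cells and higher in LPS than in control cells. Markers of lymphocytes, epithelium, and fibroblasts with endothelium summed to at most 2.12, 0.484 and 3.73 CPM in any library. LPS+RCMNs replicate 2 and control replicate 1 were unlike the other libraries of their groups. Over all genes tested, the SD of log2 differences was 0.54 to 0.58 for pairs with one of them, 0.31 and 0.32 for the other pairs of those groups and 0.44 for the LPS pair. Over the 52 genes it was, in the same order, 0.33 to 0.44, 0.12 and 0.05, and 0.17. The part of gene length, of the erythroid and neutrophil transcripts and of these 2 libraries in the results was not tested. Counts with length trends removed and with the 2 libraries left out are given for the 52 genes, and single values for a part of them. In bulk RNA, fewer dividing cells and less RNA of a gene per dividing cell cannot be told apart.

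In LPS+RCMNs cells compared with LPS cells, 19 of the 52 genes were higher and 6 lower, 36.5% and 11.5%, where of all genes tested 29.8% were called higher and 29.5% lower. The CPM values of the 2 groups did not overlap for 33 of the 52 genes, against 74.9% of all genes. In LPS cells compared with control cells, 7 of the 52 were higher and 18 lower (13.5% and 34.6%), where 31.4% of all genes were called higher and 32.1% lower. The share that was lower was thus near that of all genes. The groups did not overlap for 36 of the 52, against 76.1% of all genes. LPS+RCMNs cells compared with control cells had 2 of the 52 higher and 3 lower, beside 4.33% and 3.23% of all genes (7.56% in either direction). In either direction the shares of all genes called were 59.3% for LPS+RCMNs versus LPS and 63.4% for LPS versus control. The values of LPS+RCMNs and control cells were without overlap for 17 of the 52, beside 29.8% of all genes. The median log2 fold change of LPS+RCMNs versus LPS was 0.14 over the 52 genes and 0.03 over all genes. It was -0.16 and -0.04 for LPS versus control, and -0.06 and -0.02 in the comparison of LPS+RCMNs with control. These splits moved with the scale. FPKM is the authors' value per kb of gene and M reads. On log2(FPKM + 1), limma called 32 of the 52 higher and 3 lower in LPS+RCMNs versus LPS, and 2 higher and 36 lower in LPS versus control, while the median of all genes moved to 0.27 and -0.33. Of all genes it called 45.7% higher and 17.8% lower, and 17.7% and 49.7%. With LPS+RCMNs replicate 2 and control replicate 1 left out the counts were 20 higher and 17 lower for LPS+RCMNs versus LPS, 15 and 22 for LPS versus control, and 8 and 14 between LPS+RCMNs and control. Calls rose over all genes too, to 36.7% higher and 37.1% lower, 38.6% and 36.3%, and 14.8% and 10.6%. With a smooth trend on gene length taken out of each library they were 15 and 3, 2 and 19, and 2 and 3. Of all genes, 18.8% were then called higher and 21% lower, 22.8% and 22%, and 4.21% and 3.18%.

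**Figure D1:**
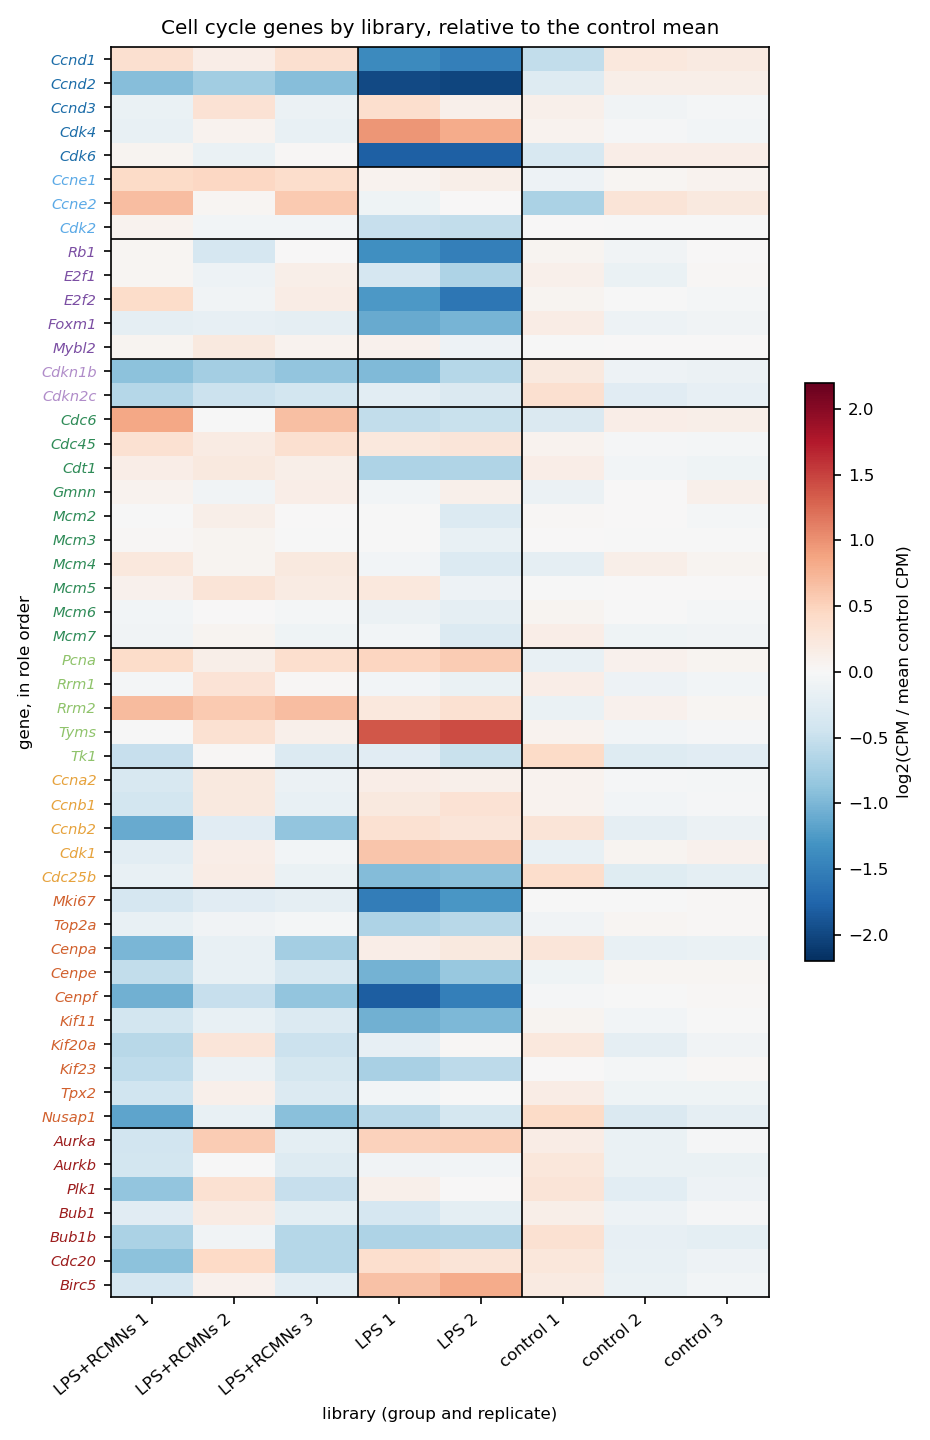
Log2 level of each of the 52 genes in each of the 8 libraries relative to the mean of the control libraries, with the genes in rows by role and the libraries in columns by group. The 2 LPS columns are darkest blue for Ccnd1, Ccnd2, Cdk6, Rb1, E2f2, Mki67 and Cenpf and darkest red for Tyms and Cdk4, and the Mcm rows stay pale.

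The G1 cyclins and kinases held the largest log2 fold changes of the 52 genes in each of the 3 comparisons, those of Cdk6 and Ccnd2. Of 5 genes, 3 were higher and 1 lower in LPS+RCMNs than in LPS cells, and 3 were lower and 1 higher in LPS than in control cells. Over all genes 29.8% were higher and 29.5% lower in the first of these comparisons, and 32.1% lower and 31.4% higher in the second. Ccnd1 (cyclin D1, chromosome 7, 144929931 to 144939831 on GRCm38.p6), which couples growth factor signals to the cycle, had 938, 813 and 932 CPM in LPS+RCMNs cells, 279 and 258 in LPS cells and 503, 859 and 841 in control cells. Every LPS value lay below every value of the other groups, and control replicate 1 lay well below its group. The log2 fold change of Ccnd1 was 1.74 ± 0.22 (adjusted p = 1.29e-04) for LPS+RCMNs versus LPS and -1.45 ± 0.21 (adjusted p = 3.05e-04) for LPS versus control. With the length trend removed it was 1.41 and -1.11. Ccnd2 (cyclin D2, chromosome 6, 127125162 to 127152188) had 92.1, 105 and 92.5 CPM in LPS+RCMNs cells, 44.7 and 43.6 in LPS cells and 145, 193 and 193 in control cells, so that its LPS+RCMNs values sat between those of the other groups without overlap. It differed by 1.13 ± 0.14 (adjusted p = 1.29e-04) for LPS+RCMNs versus LPS, -2.002 ± 0.15 (adjusted p = 5.36e-06) for LPS versus control and -0.88 ± 0.12 (adjusted p = 0.00343) between LPS+RCMNs and control. Removing the length trend left 0.47, -1.29 and -0.82. Ccnd3 (cyclin D3) was not called in any comparison, at 42.8, 59.3 and 43.3 CPM in LPS+RCMNs cells, 61.2 and 51.4 in LPS cells and 51.1, 45.2 and 46.3 in control cells. With the 2 libraries left out it was called, at -0.41 for LPS+RCMNs versus LPS and 0.35 for LPS versus control.

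Their kinase partners moved in opposite directions. Cdk6 (chromosome 5, 3341004 to 3531008) had 220.4, 191 and 217 CPM in LPS+RCMNs cells, 60.7 and 60.9 in LPS cells and 166, 235 and 235 in control cells, with the LPS values far below the rest. Its fold change was 1.78 ± 0.16 (adjusted p = 2.31e-05) for LPS+RCMNs versus LPS and -1.80 ± 0.16 (adjusted p = 1.68e-05) for LPS versus control. Cdk4 had 255, 302 and 256 CPM in LPS+RCMNs cells, 559.9 and 506 in LPS cells and 301, 283 and 276 in control cells, and here the LPS values lay above all others. Cdk4 differed by -0.98 ± 0.10 (adjusted p = 5.28e-05) and 0.90 ± 0.10 (adjusted p = 7.21e-05) in the same comparisons. The genes differ in length, 11523 bases for Cdk6 and 1365 for Cdk4 as implied by the deposited counts and FPKM. After removal of the length trend Cdk6 was at 0.83 and -0.80, both called, and Cdk4 at -0.39, still called, and 0.25, no longer called. With a surface on length and level removed, Cdk4 turned to -0.12 for LPS versus control. The ratio of Cdk4 to Cdk6 in FPKM, a unit per length that keeps the length trend of the LPS libraries, was 9.79, 13.4 and 9.97 in LPS+RCMNs cells, 78.6 and 70.9 in LPS cells and 15.3, 10.1 and 9.86 in control cells. On the log2 scale of CPM, the fold change of Cdk4 less that of Cdk6 was -2.76 for LPS+RCMNs versus LPS and 2.70 for LPS versus control. It was -1.22 and 1.05 with the length trend removed, and -0.71 and 0.54 with the surface removed. With the median length of annotated coding transcripts in the trend fit, 697 bases for Cdk6, it was -2.84 and 2.78. The 3 D cyclins together came to 305, 283 and 304 FPKM in LPS+RCMNs cells, 90.3 and 84.0 FPKM in LPS cells and 212, 313 and 311 FPKM in control cells. Cyclin D1 made up 86.2%, 81.0% and 86.2% of that sum in LPS+RCMNs cells, 64.1% and 65.8% in LPS cells and 71.6%, 79.9% and 79.3% in control cells, so its share was lowest in the LPS libraries. The sum and this share, like the FPKM ratio, keep the length trend of those libraries. Implied lengths are 3750 bases for Ccnd1, 5925 for Ccnd2 and 1788 for Ccnd3, and the part of length in the share was not tested.

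**Figure D2:**
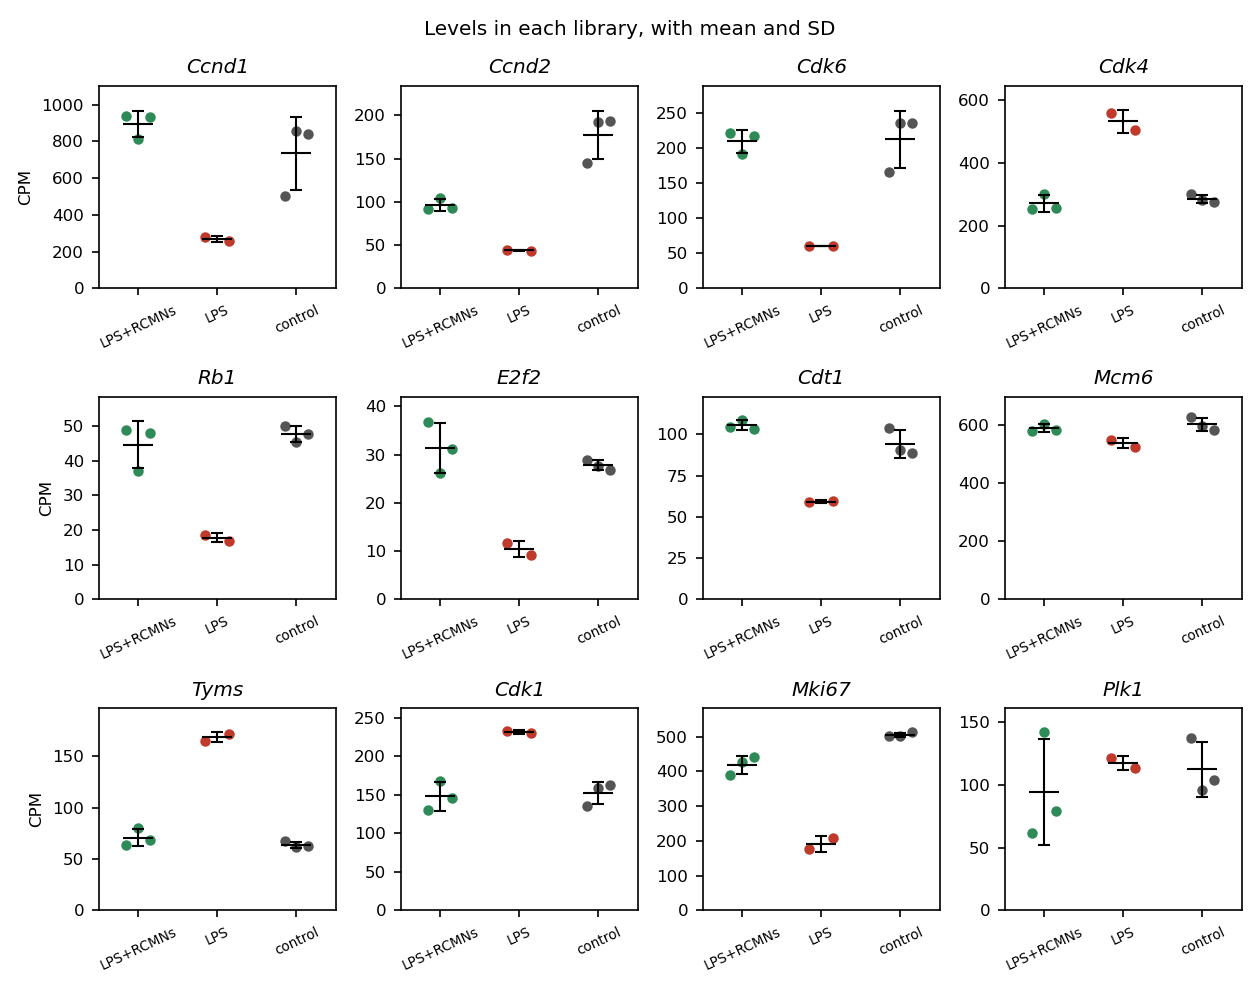
CPM in each library for 12 of the genes, 1 panel each, with points for libraries and bars for the group mean and its SD (LPS+RCMNs n = 3, LPS n = 2, control n = 3). LPS points lie below all others for Ccnd1, Ccnd2, Cdk6, Rb1, E2f2, Cdt1, Mki67 and, by a smaller margin, Mcm6. They lie above all others for Cdk4, Tyms and Cdk1, and among the spread of the other groups for Plk1.

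Of the cyclin E and Cdk2 group, which fires the entry into S phase, 2 of 3 genes were higher in LPS+RCMNs than in LPS cells and 1 was lower in LPS than in control cells. Over all genes these shares were 29.8% higher and 32.1% lower. Cdk2 had 81.1, 73.7 and 73.9 CPM in LPS+RCMNs cells, 54.4 and 53.3 in LPS cells and 78.1, 76.9 and 76.6 in control cells, with the LPS values lowest and close together. The fold change of Cdk2 was 0.50 ± 0.09 (adjusted p = 9.25e-04) for LPS+RCMNs versus LPS and -0.52 ± 0.09 (adjusted p = 6.72e-04) for LPS versus control. It was larger, 0.67 and -0.70, with the length trend removed. Ccne1 (cyclin E1) had 56.2, 57.6 and 54.7 CPM in LPS+RCMNs cells, 44.0 and 45.7 in LPS cells and 38.6, 42.9 and 43.9 in control cells, so that it was above both other groups in the LPS+RCMNs libraries. It was called higher in LPS+RCMNs cells against LPS cells, by 0.32 ± 0.10 (adjusted p = 0.0160), and against control cells, by 0.43 ± 0.08 (adjusted p = 0.0186). The call of Ccne1 against LPS cells was lost without either LPS library and with a block on replicate number. Ccne2 (cyclin E2) had 70.7, 45.8 and 66.1 CPM in LPS+RCMNs cells, 41.4 and 44.5 in LPS cells and 27.3, 53.8 and 51.6 in control cells, with LPS+RCMNs replicate 2 and control replicate 1 below the others of their groups, and was not called. With those 2 libraries left out it was called, at 0.65 for LPS+RCMNs versus LPS and -0.24 for LPS versus control.

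Among the RB, E2F and cell cycle transcription factors, 4 of 5 were higher in LPS+RCMNs than in LPS cells, and 4 of 5 lower in LPS than in control cells. For all genes the same calls took in 29.8% and 32.1%. Rb1 (chromosome 14, 73192858 to 73325951), the brake on E2F, had 48.9, 36.9 and 47.9 CPM in LPS+RCMNs cells, 18.7 and 16.8 in LPS cells and 49.9, 45.3 and 47.7 in control cells. Its LPS values were well under the lowest of the other groups, and it differed by 1.33 ± 0.14 (adjusted p = 5.81e-05) for LPS+RCMNs versus LPS and -1.42 ± 0.14 (adjusted p = 3.22e-05) for LPS versus control. E2f2, an activating E2F, had 36.7, 26.3 and 31.2 CPM in LPS+RCMNs cells, 11.6 and 9.21 in LPS cells and 28.9, 27.7 and 26.8 in control cells, again lowest in LPS. Its fold changes were 1.59 ± 0.17 (adjusted p = 5.49e-05) and -1.42 ± 0.17 (adjusted p = 8.87e-05). E2f1, the best known activating E2F, had 54.6, 49.2 and 58.3 CPM in LPS+RCMNs cells, 40.9 and 33.0 in LPS cells and 57.3, 48.0 and 53.6 in control cells, a smaller gap that still did not overlap. Its fold changes were 0.55 ± 0.13 (adjusted p = 0.00589) and -0.52 ± 0.13 (adjusted p = 0.00716). Foxm1, which drives mitotic genes, differed by 0.87 ± 0.11 (adjusted p = 1.30e-04) and -1.06 ± 0.11 (adjusted p = 3.46e-05). Once the length trend was removed, Rb1 was at 0.82 and -0.89, E2f2 at 1.15 and -0.95, all called. E2f1 was at 0.55 and -0.52 and Foxm1 at 0.42 and -0.58, also called. Mybl2 (B-Myb), which acts with the MuvB complex on mitotic genes, was not called. It had 229.6, 255 and 230.4 CPM in LPS+RCMNs cells, 233 and 202 in LPS cells and 217, 220.3 and 219.5 in control cells. LPS cells overlapped with both other groups, and LPS+RCMNs cells did not overlap with control cells. The intervals of its fold change (95%) ran from -0.09 to 0.35 for LPS+RCMNs versus LPS and from -0.22 to 0.21 for LPS versus control.

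Of the inhibitors of cyclin-dependent kinases, Cdkn1b was lower in both LPS-treated groups than in control cells. Cdkn1b (p27), which binds cyclin E with Cdk2, had 12.8, 14.3 and 13.0 CPM in LPS+RCMNs cells, 12.1 and 15.4 in LPS cells and 27.8, 22.1 and 21.7 in control cells. Control values lay above all others, and those of the LPS+RCMNs and LPS cells overlapped. Cdkn1b was lower in LPS+RCMNs than in control cells, at -0.84 ± 0.14 (adjusted p = 0.0101), and in LPS than in control cells, at -0.79 ± 0.17 (adjusted p = 0.00246). Between LPS+RCMNs and LPS cells it differed by -0.05 ± 0.16, which was not called. Cdkn2c (p18), an inhibitor of Cdk4 and Cdk6, had 12.8, 14.2 and 14.9 CPM in LPS+RCMNs cells, 16.8 and 15.7 in LPS cells and 25.1, 16.5 and 17.2 in control cells and was not called in any comparison. With the length trend removed it was called lower in LPS than in control cells, at -0.72.

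Origin licensing and helicase genes were mostly not called. Of 10 genes, 3 were higher and none lower in LPS+RCMNs than in LPS cells, beside 29.8% and 29.5% of all genes. In LPS cells against controls 1 was higher and 1 lower, beside 31.4% and 32.1% of all genes. None was called between LPS+RCMNs and control cells, beside 7.56% of all genes. To show what their promoters hold, windows of 300 bases (250 before and 50 after the start) were read from RefSeq, build GRCm38.p6. They matched 41 of the 52 genes. Aurkb, Ccna2, Ccnd1, Ccnd2, Ccne2, Foxm1, Gmnn, Kif20a, Mcm4, Rb1 and Tpx2 were not matched. Both strands were searched for E2F motifs (TTTCCCGC, TTTGGCGC, TTTCGCGC or TTTGCCGC), for CHR elements (TTTGAA or TTCGAA) and for the CCAAT box (CCAAT). An E2F motif was in 6 of 9 promoters of the licensing and helicase genes (66.7%), in 9 of 45 promoters of the 52 genes (20.0%) and in 2.26% of all 32851 promoters. Cdc6 and Mcm6 are shown, 5′ to 3′ on the gene's strand and with every match in capitals. The first was among the genes that differed and the second among those not called. Both hold E2F motifs. In the Mcm6 promoter 2 of its 3 matches overlap. The Cdc6 start shown lies 442 bases from the gene's outermost annotated start.
Cdc6 promoter (chr11:98907901-98908200, plus strand): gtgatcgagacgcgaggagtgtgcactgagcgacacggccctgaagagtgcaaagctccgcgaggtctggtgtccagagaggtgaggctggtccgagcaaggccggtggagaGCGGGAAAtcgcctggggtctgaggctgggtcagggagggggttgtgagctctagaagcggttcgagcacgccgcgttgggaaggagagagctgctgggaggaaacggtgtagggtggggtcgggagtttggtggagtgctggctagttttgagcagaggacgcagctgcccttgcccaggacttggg
Mcm6 promoter (chr1:128359656-128359955, minus strand): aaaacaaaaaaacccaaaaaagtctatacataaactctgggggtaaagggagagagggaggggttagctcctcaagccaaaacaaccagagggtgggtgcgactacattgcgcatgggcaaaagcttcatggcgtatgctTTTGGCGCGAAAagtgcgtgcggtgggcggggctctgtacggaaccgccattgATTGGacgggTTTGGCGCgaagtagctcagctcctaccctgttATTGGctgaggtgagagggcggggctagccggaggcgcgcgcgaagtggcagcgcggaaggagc
A match is a run of letters and not a measured binding site.

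Cdc6, which loads the helicase, had 136, 75.5 and 119 CPM in LPS+RCMNs cells, 51.8 and 54.1 in LPS cells and 60.6, 83.2 and 83.0 in control cells. LPS values were the lowest, LPS+RCMNs replicates 1 and 3 stood above all others, and LPS+RCMNs replicate 2 lay within the control range. Cdc6 was higher in LPS+RCMNs than in LPS cells by 1.06 ± 0.24 (adjusted p = 0.00405), and at 0.56 it was no longer called with the length trend removed. Cdt1, its partner in loading, had 104, 109 and 103 CPM in LPS+RCMNs cells, 58.8 and 59.7 in LPS cells and 104, 90.3 and 88.6 in control cells, with the LPS values lowest and without overlap. Its fold change was 0.83 ± 0.10 (adjusted p = 9.67e-05) for LPS+RCMNs versus LPS and -0.67 ± 0.10 (adjusted p = 2.96e-04) for LPS versus control. Without the length trend it was 1.03 and -0.89. Cdc45, which activates the loaded helicase, had 74.8, 66.9 and 75.7 CPM in LPS+RCMNs cells, 69.7 and 71.2 in LPS cells and 62.6, 58.1 and 57.3 in control cells and was higher in LPS than in control cells by 0.25 ± 0.09 (adjusted p = 0.0423). Without the length trend that call was lost, at 0.01, and on the FPKM scale the sign was the opposite. Gmnn (geminin), the inhibitor of Cdt1, was not called, at 0.02 and 0.03. It is the shortest of the 52 genes by implied length (929 bases), and once the length trend was removed it was called at 0.96 for LPS+RCMNs versus LPS and -0.99 for LPS versus control.

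Of the 6 subunits of the Mcm helicase, 1 was called on the CPM scale. Summed over Mcm2 to Mcm7, the level was 1920, 2018 and 1939 CPM in LPS+RCMNs cells, 1870 and 1634 CPM in LPS cells and 1932, 1904 and 1870 CPM in control cells. The first LPS library matched the lowest control library and the second lay below all others. Mcm2 had 263, 289.7 and 268 CPM in LPS+RCMNs cells, 263 and 216 in LPS cells and 269.6, 266 and 258 in control cells, with overlapping groups. Mcm6 had 579.7, 605 and 584 CPM in LPS+RCMNs cells, 550.2 and 526 in LPS cells and 629, 598 and 584 in control cells, and its LPS values were the lowest. Neither was called. The interval of the log2 fold change (95%) of Mcm2 ran from -0.04 to 0.43 for LPS+RCMNs versus LPS and from -0.38 to 0.09 for LPS versus control. That of Mcm6 ran from -0.05 to 0.32 and from -0.35 to 0.02. Only Mcm4 of the 6 was called, higher in LPS+RCMNs than in LPS cells by 0.34 ± 0.12 (adjusted p = 0.0378), and not with the length trend removed, at 0.08. The call of Mcm4 was lost in 11 of 23 alternatives, among them median-ratio scaling and a block on replicate number. On the scale of log2(FPKM + 1) all 6 were called higher in LPS+RCMNs than in LPS cells, at 0.51 to 0.75, and all 6 lower in LPS than in control cells, at -0.66 to -0.42, where the medians of all genes were 0.27 and -0.33. With a surface on length and level removed 3 of the 6 were called in each of these comparisons, in the same directions, and with the length trend removed none was.

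For the replication clamp and the supply of nucleotides, 1 of 5 genes was higher and 1 lower in LPS+RCMNs than in LPS cells. LPS cells had 3 higher and none lower against controls. The shares of all genes were 29.8% higher and 29.5% lower in the first comparison, and 31.4% and 32.1% in the second. Tyms (thymidylate synthase, chromosome 5, 30038546 to 30073645), which makes thymidine monophosphate, was lower in LPS+RCMNs cells, with 63.4, 80.1 and 68.7 CPM in LPS+RCMNs cells, 165 and 172 in LPS cells and 67.1, 61.5 and 63.0 in control cells. Both LPS values stood far above any other. The fold change of Tyms was -1.25 ± 0.11 (adjusted p = 1.68e-05) for LPS+RCMNs versus LPS and 1.40 ± 0.11 (adjusted p = 7.37e-06) for LPS versus control. With the length trend removed it was -1.58 and 1.75. That fit used the implied length of 3788 bases, which is more than any of its annotated coding transcripts (447 to 3163 bases). With their median length in its place it was -0.70 and 0.82, still called. Rrm2, the regulated subunit of ribonucleotide reductase, had 268, 248 and 265 CPM in LPS+RCMNs cells, 194 and 209.9 in LPS cells and 149, 177 and 171 in control cells, in steps without overlap that were highest in LPS+RCMNs cells. It was higher in LPS+RCMNs than in LPS cells by 0.37 ± 0.10 (adjusted p = 0.0124) and in LPS than in control cells by 0.28 ± 0.10 (adjusted p = 0.0337). Against control cells the LPS+RCMNs cells were higher by 0.65 ± 0.09 (adjusted p = 0.00374). The rise of Rrm2 in LPS against control was lost with the length trend removed, at 0.06, and had the opposite sign on the FPKM scale. Pcna, the sliding clamp, had 581, 481 and 569 CPM in LPS+RCMNs cells, 612 and 644 in LPS cells and 392, 470.2 and 457 in control cells, with both LPS values above all others. It was called higher in LPS than in control cells, by 0.51 ± 0.12 (adjusted p = 0.00365). That direction turned with the length trend removed, to -0.24, not called. The fold change of LPS+RCMNs versus LPS was -0.21, not called, with the trend left in and 0.49, called, with it removed. With the 2 libraries left out, Pcna was called lower in LPS+RCMNs than in LPS cells, at -0.15. Rrm1 and Tk1 were not called, but with the length trend removed Tk1 (thymidine kinase) was, at 0.83 for LPS+RCMNs versus LPS and -1.14 for LPS versus control.

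**Figure D3:**
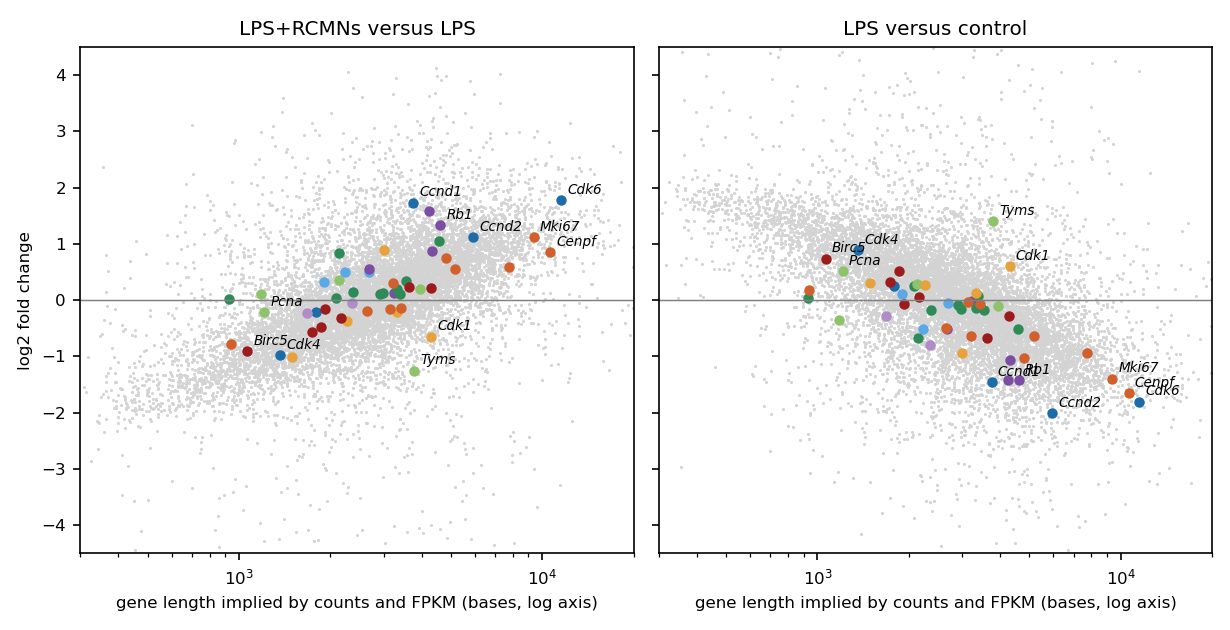
Log2 fold change against gene length (bases, log axis) for the 52 genes (coloured by role) and all other genes tested (grey; genes beyond the vertical axis are not drawn), for LPS+RCMNs versus LPS and LPS versus control. Long genes lie high in LPS+RCMNs versus LPS and low in LPS versus control, with Tyms and Cdk1 away from the trend in both panels.

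Across genes, the fold change ran with length. The rank correlation of the log2 fold change with implied length is a description over genes that share libraries. It was 0.66 over the 52 genes and 0.60 over all genes for LPS+RCMNs versus LPS, -0.64 and -0.59 for LPS versus control, and -0.07 and -0.09 in the comparison of LPS+RCMNs with control. Under all alternatives tried apart from a fold minimum, 8 of the 19 higher calls in LPS+RCMNs versus LPS were kept. They were Ccnd1, Cdk6, Cdk2, Rb1, E2f2, Foxm1, Cdt1 and Cdc25b. Of the 6 lower calls only that of Tyms was. In LPS versus control 13 of the 18 lower calls were kept (Ccnd1, Ccnd2, Cdk6, Cdk2, Rb1, E2f2, Foxm1, Cdkn1b, Cdt1, Cdc25b, Mki67, Kif11 and Kif23) and 1 of the 7 higher ones, again Tyms.

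The S to M cyclins, with their kinase and phosphatase, had 1 of 5 genes higher and 2 lower in LPS+RCMNs than in LPS cells. For LPS cells against controls the counts were 1 and 1. The shares of all genes were 29.8% higher and 29.5% lower, then 31.4% and 32.1%. Cdk1, the kinase that drives mitosis, had 130.1, 168 and 146 CPM in LPS+RCMNs cells, 233 and 230.4 in LPS cells and 136, 159 and 163 in control cells. The LPS values were above all others. It differed by -0.65 ± 0.12 (adjusted p = 0.00168) for LPS+RCMNs versus LPS and 0.60 ± 0.12 (adjusted p = 0.00230) for LPS versus control. With the length trend removed it was at -1.09 and 1.08, both called. Its implied length, 4300 bases, is near the longest of its annotated coding transcripts (695 to 4375 bases), and with their median length the trend fit gave -0.25 and 0.18, not called. Cdc25b, the phosphatase that switches on cyclin B with Cdk1, went the other way at 49.9, 62.7 and 50.7 CPM in LPS+RCMNs cells, 28.9 and 29.7 in LPS cells and 73.0, 46.5 and 48.5 in control cells, lowest in LPS cells. Its fold change was 0.89 ± 0.20 (adjusted p = 0.00421) and -0.93 ± 0.20 (adjusted p = 0.00307), and 0.79 and -0.83, both called, with the length trend removed. Ccnb2 (cyclin B2) had 30.1, 54.6 and 35.5 CPM in LPS+RCMNs cells, 81.9 and 78.4 in LPS cells and 79.2, 56.6 and 59.4 in control cells, with every LPS+RCMNs value below every LPS value. It was lower in LPS+RCMNs than in LPS cells, at -1.001 ± 0.23 (adjusted p = 0.00486). That call was lost with the length trend removed, at -0.49, with the surface removed and on the FPKM scale, and was kept with the 2 libraries left out, at -1.31. Ccnb1 (cyclin B1) had 155, 239 and 183 CPM in LPS+RCMNs cells, 239.9 and 255 in LPS cells and 217, 197 and 203 in control cells and was not called, at -0.36 ± 0.16 for LPS+RCMNs versus LPS, with LPS+RCMNs replicate 2 level with the lower LPS value. Ccna2 (cyclin A2) was not called either, at -0.20 ± 0.15. With the 2 libraries left out both were called lower in LPS+RCMNs than in LPS cells, Ccnb1 at -0.58 and Ccna2 at -0.40.

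Among the chromosome, centromere and spindle genes, 5 of 10 were higher and 1 lower in LPS+RCMNs than in LPS cells, and 6 were lower and none higher in LPS than in control cells. Over all genes 29.8% were higher and 29.5% lower in the first comparison, and 32.1% lower and 31.4% higher in the second. Mki67 (chromosome 7, 135689784 to 135716450), which coats mitotic chromosomes and is the usual marker of dividing cells, had 389, 427 and 441 CPM in LPS+RCMNs cells, 175 and 209 in LPS cells and 501, 502 and 512 in control cells. LPS values were less than those of the other groups by a wide margin, and LPS+RCMNs values sat a little under the control ones. Mki67 differed by 1.12 ± 0.11 (adjusted p = 2.60e-05) for LPS+RCMNs versus LPS and -1.39 ± 0.11 (adjusted p = 6.97e-06) for LPS versus control. Top2a (topoisomerase II alpha), which untangles sister chromatids, had 493, 525 and 537 CPM in LPS+RCMNs cells, 346 and 364 in LPS cells and 527, 572 and 563 in control cells, lowest in LPS cells. It differed by 0.55 ± 0.09 (adjusted p = 5.90e-04) and -0.64 ± 0.09 (adjusted p = 2.02e-04). Cenpf, a kinetochore protein, had 60.2, 88.5 and 69.2 CPM in LPS+RCMNs cells, 35.7 and 44.5 in LPS cells and 124, 126 and 128 in control cells, in steps without overlap. It differed by 0.86 ± 0.16 (adjusted p = 0.00165), -1.65 ± 0.17 (adjusted p = 3.33e-05) and, for LPS+RCMNs versus control, -0.79 ± 0.14 (adjusted p = 0.0116). These genes are long, 9358 bases for Mki67, 5168 for Top2a and 10622 for Cenpf. After removal of the length trend, Mki67 was at 0.26, Top2a at -0.03, Cenpf at -0.04, Cenpe at -0.19 and Kif11 at 0.22 for LPS+RCMNs versus LPS, none of them called. In LPS versus control Mki67 remained called at -0.47, Cenpf at -0.69 and Kif11, the spindle motor, at -0.46, and Top2a did not at -0.02. Cenpa, the histone H3 variant of centromeres and a short gene of 938 bases, went the other way: it had 46.5, 82.8 and 55.5 CPM in LPS+RCMNs cells, 103 and 108 in LPS cells and 112, 83.4 and 84.1 in control cells. It was lower in LPS+RCMNs than in LPS cells, at -0.78 ± 0.22 (adjusted p = 0.0137), and changed sign, to 0.15, with the length trend removed.

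**Figure D4:**
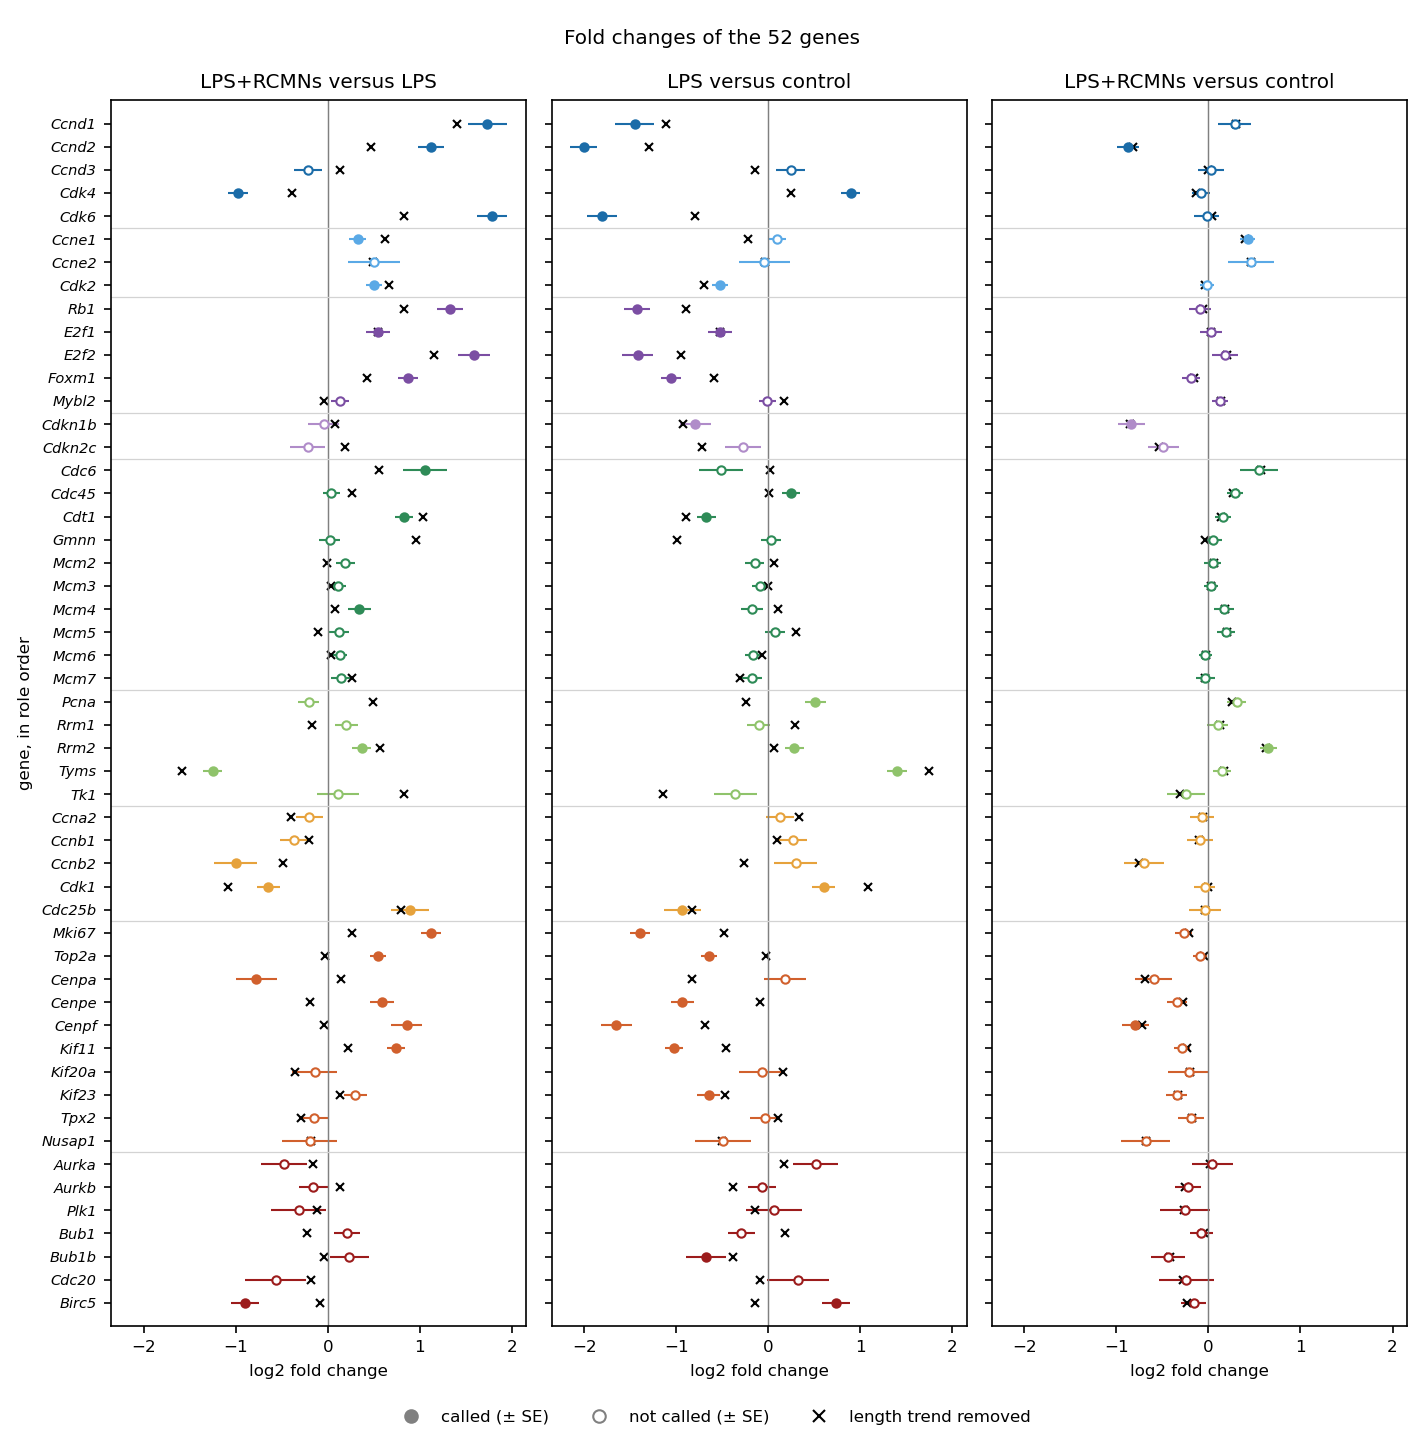
Log2 fold change with its SE for each of the 52 genes by role in the 3 comparisons, with crosses for the value after the length trend is removed. In LPS+RCMNs versus control the 5 filled points are Ccnd2, Cdkn1b and Cenpf below 0 and Ccne1 and Rrm2 above it.

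Mitotic kinases, checkpoint and passenger genes had 1 of 7 lower and none higher in LPS+RCMNs than in LPS cells. LPS cells had 1 of them higher (Birc5) and 1 lower (Bub1b) against controls. For all genes the shares were 29.5% lower and 29.8% higher, then 31.4% higher and 32.1% lower. Birc5 (survivin), of the chromosomal passenger complex, had 59.5, 82.1 and 65.6 CPM in LPS+RCMNs cells, 121 and 137 in LPS cells and 88.5, 69.6 and 73.7 in control cells, with LPS above the rest. It differed by -0.90 ± 0.15 (adjusted p = 7.94e-04) and 0.74 ± 0.15 (adjusted p = 0.00230), and by -0.09 and -0.15, not called, with the length trend removed (implied length 1066 bases). Bub1b, a kinase-like protein of the spindle checkpoint, had 122, 186 and 128 CPM in LPS+RCMNs cells, 123 and 124 in LPS cells and 248, 173 and 169.5 in control cells, with control replicate 1 above all others. It was lower in LPS than in control cells, at -0.67 ± 0.22 (adjusted p = 0.0216), a call lost at -0.38 once the length trend was removed. The other 5 were not called in any comparison.

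Within the groups, however, these 7 genes varied together. Plk1 (polo-like kinase 1), needed for spindle assembly, had 61.8, 142 and 79.5 CPM in LPS+RCMNs cells, 122 and 114 in LPS cells and 137, 95.9 and 104 in control cells. Cdc20, which activates the anaphase-promoting complex, had 74.3, 189.6 and 90.1 CPM in LPS+RCMNs cells, 180.4 and 169 in LPS cells and 166, 124 and 128 in control cells. Aurka (Aurora A), a spindle pole kinase, had 91.3, 180.4 and 105 CPM in LPS+RCMNs cells, 174 and 175 in LPS cells and 136, 111 and 119 in control cells. LPS+RCMNs replicate 2 was highest of its group for all 3, and so was control replicate 1. These 3, like Ccne1 and Ccne2 above, are given in each library as a later choice, after their values were seen. On the log2 scale, Plk1 was 1.01 higher in LPS+RCMNs replicate 2 than the mean CPM of replicates 1 and 3, and 0.46 higher in control replicate 1 than the mean CPM of the other control replicates. For Cdc20 these differences were 1.20 and 0.39, and for Aurka 0.88 and 0.24. All 7 genes of the group were higher in both libraries than in the others of their groups, as were 30 of the 52 genes, against 32.3% of all genes tested. Lower in both were 8 of the 52 (Ccnd1, Cdk6, Ccne2, Cdc6, Gmnn, Mcm4, Pcna and Rrm2), against 32.4%. For Cdc6 the differences were -0.76 and -0.46, for Ccne2 -0.58 and -0.94 and for Ccnd1 -0.20 and -0.76, so these 3 genes lay low in the libraries where the mitotic kinases lay high.

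**Figure D5:**
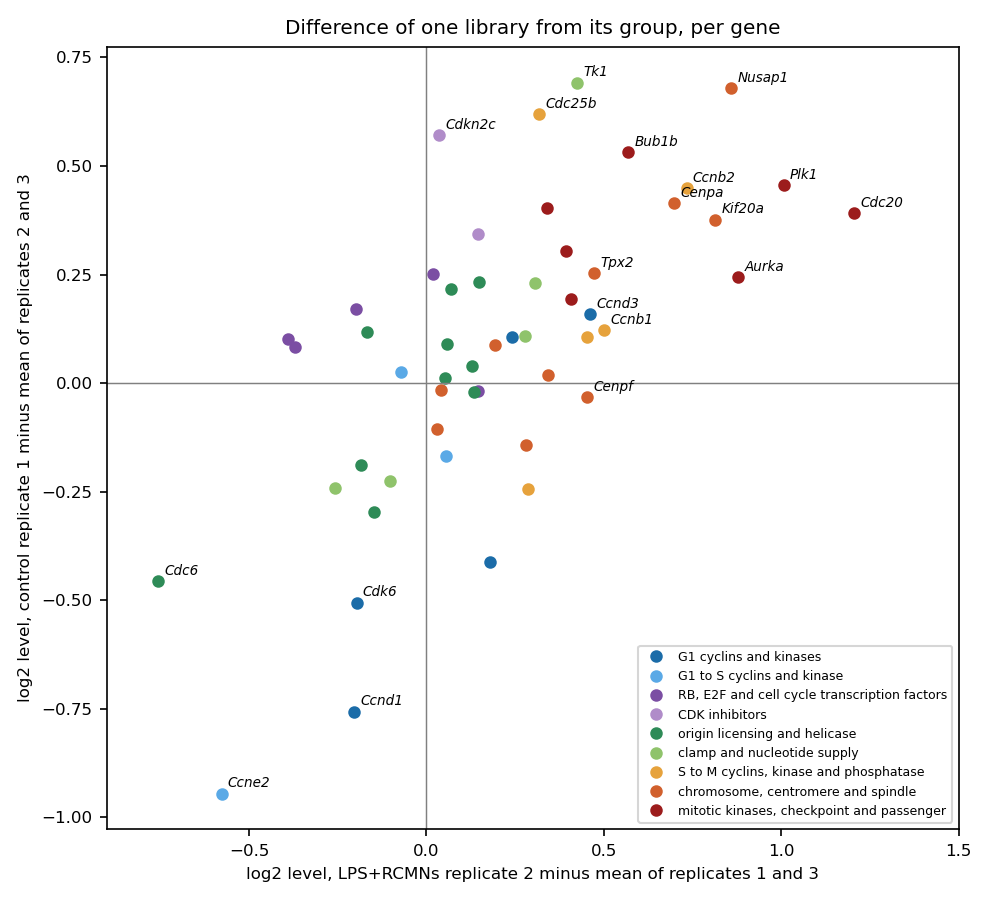
Log2 level of LPS+RCMNs replicate 2 relative to the mean of replicates 1 and 3 (horizontal axis) and of control replicate 1 relative to the mean of replicates 2 and 3 (vertical axis), 1 point for each of the 52 genes, coloured by role. Mitotic kinases, checkpoint and passenger genes lie in the upper right, up to Cdc20 at 1.20 and 0.39, and Cdc6, Ccne2 and Ccnd1 in the lower left.

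The promoters of the mitotic genes were searched in the same way. A CHR element was in 5 of 6 promoters of the mitotic kinase group (83.3%), in 6 of 8 of the chromosome and spindle group (75.0%) and in 3 of 4 of the S to M group (75.0%). The share was 33.3% of the licensing and helicase promoters and 19.2% of all promoters. No E2F motif was found in the windows of the first 2 of these groups. A CCAAT box was in 71.1% of the promoters of the 52 genes and in 37.4% of all. Plk1 and Cdc20, for which LPS+RCMNs replicate 2 differed most from its group, and Cdk1, the kinase that drives mitosis, are shown with every match in capitals.
Cdk1 promoter (chr10:69352863-69353162, minus strand): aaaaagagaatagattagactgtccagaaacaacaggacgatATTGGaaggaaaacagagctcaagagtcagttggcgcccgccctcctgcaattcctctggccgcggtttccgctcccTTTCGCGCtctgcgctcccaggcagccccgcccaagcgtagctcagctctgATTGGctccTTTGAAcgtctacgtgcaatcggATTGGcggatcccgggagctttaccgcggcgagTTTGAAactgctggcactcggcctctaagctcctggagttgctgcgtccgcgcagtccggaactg
Plk1 promoter (chr7:122159185-122159484, plus strand): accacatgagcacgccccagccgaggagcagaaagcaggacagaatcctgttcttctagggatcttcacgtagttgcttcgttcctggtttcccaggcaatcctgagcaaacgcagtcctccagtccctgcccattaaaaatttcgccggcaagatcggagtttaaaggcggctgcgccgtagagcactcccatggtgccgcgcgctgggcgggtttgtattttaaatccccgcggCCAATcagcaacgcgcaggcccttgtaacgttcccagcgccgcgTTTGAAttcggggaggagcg
Cdc20 promoter (chr4:118437294-118437593, minus strand): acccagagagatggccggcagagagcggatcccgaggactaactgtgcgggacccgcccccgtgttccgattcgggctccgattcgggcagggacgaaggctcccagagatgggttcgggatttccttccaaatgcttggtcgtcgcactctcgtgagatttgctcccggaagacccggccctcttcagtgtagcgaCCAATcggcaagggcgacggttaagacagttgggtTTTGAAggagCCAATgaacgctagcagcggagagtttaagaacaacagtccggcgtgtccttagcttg
Shares by call were closer. Among promoters of genes lower in LPS than in control cells, 3 of 15 held an E2F motif and 8 of 15 a CHR element, and among those not called 5 and 8 of 23. No test was made of these shares.

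LPS+RCMNs cells, compared with control cells, thus differed in 5 genes, of which Ccnd2 (lower) and Rrm2 (higher) kept their call under every alternative tried apart from the fold minimum. Where both of the libraries that stood apart were left out, 12 of the 22 genes of the last 3 role groups, from the S to M cyclins to the mitotic kinases, were called lower in LPS+RCMNs than in control cells and none higher. The other 10 were not called, Aurka at -0.20 and Cdk1 at -0.19 among them. Cdc20 was at -0.59, Plk1 at -0.47, Nusap1, which bundles spindle microtubules, at -0.74, Ccnb2 at -0.79, Cenpa at -0.69 and Bub1b at -0.43, 6 of the 12. In the same fit Cdc6 was at 0.65, Pcna at 0.34, E2f2 at 0.34 and Ccne2 at 0.40, all higher. That fit called 8 higher and 14 lower of the 52 genes, where of all genes it called 14.8% higher and 10.6% lower, from 2 libraries per group. For LPS+RCMNs versus LPS it called Cdc20 at -1.11, Aurka at -0.86 and Plk1 at -0.76, all lower, and 13 of those 22 genes lower and 6 higher. There 37.1% of all genes were called lower and 36.7% higher. The 2 libraries were left out because they differed from their groups in these same data, which by itself narrows the spread within groups. With all 8 libraries, only Cenpf of the 22 genes was called between LPS+RCMNs and control cells.

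The cell cycle holds further genes, and 137 of them that lie outside the 52 were measured, and all were tested. Cdkn2a and Cdkn2b of that list were not used here. In LPS+RCMNs versus LPS cells 43 were higher and 44 lower (31.4% and 32.1%), with a median log2 fold change of 0.03, near the shares of all genes. In LPS versus control cells 40 were higher and 49 lower (29.2% and 35.8%, median -0.10), beside 31.4% and 32.1% of all genes. In LPS+RCMNs versus control cells 1 was higher and 1 lower (0.73% each), beside 4.33% and 3.23% of all genes. By role, in LPS+RCMNs versus LPS cells, 13 were higher and 18 lower of 45 replication genes, 18 and 17 of 59 mitosis genes and 12 and 9 of 33 regulators. The shares of all genes there were 29.8% higher and 29.5% lower. Among called genes with a mean of at least 5 FPKM, the highest fold changes were those of Aspm, a spindle pole protein, at 1.66 ± 0.28 (adjusted p = 7.54e-04), Ncapg2, a condensin II subunit, at 1.48 ± 0.10 (adjusted p = 5.94e-06), and Dnmt1, the maintenance DNA methyltransferase, at 1.30 ± 0.10 (adjusted p = 8.79e-06). The lowest were those of Cenpm, a centromere protein, at -1.56 ± 0.21 (adjusted p = 2.06e-04), Cks2, a subunit of cyclin-dependent kinase complexes, at -1.54 ± 0.22 (adjusted p = 2.89e-04), and Pttg1 (securin) at -1.20 ± 0.26 (adjusted p = 0.00343). In LPS versus control cells Pttg1 was at 1.44 ± 0.26 (adjusted p = 0.00112), Orc6, of the origin recognition complex, at 1.27 ± 0.09 (adjusted p = 4.73e-06) and Cenpm at 1.20 ± 0.21 (adjusted p = 8.20e-04). Myc, a driver of growth that lay under that minimum at a mean of 1.51 FPKM, had the largest rise there, 2.90 ± 0.48 (adjusted p = 6.36e-04), and is named as a later choice. At the other end were Aspm at -2.37 ± 0.29 (adjusted p = 8.89e-05), Pole, the leading strand polymerase, at -1.48 ± 0.11 (adjusted p = 5.55e-06) and the kinesin Kif14 at -1.35 ± 0.19 (adjusted p = 2.23e-04). Skp2, which marks p27 for breakdown, was lower in LPS+RCMNs than in control cells, at -0.52 ± 0.09 (adjusted p = 0.00982). With the length trend removed, 26 were higher and 14 lower in LPS+RCMNs versus LPS cells and 13 higher and 34 lower in LPS versus control cells. Of all genes that fit called 18.8% higher and 21% lower, and 22.8% and 22%.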

How the data were processed

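The 8 libraries of MH-S cells were grouped by their titles into LPS+RCMNs (n = 3), LPS (n = 2) and control (n = 3). The authors deposited estimated counts per gene and library, per the file headers named read counts, which were made by a tool not named in the labels; 77.8% of those above 0 lay over 0.001 away from any integer. The same table holds FPKM, scaled by the authors per kb and M reads. The submitters' processing notes name mm10, and neither aligner nor annotation is stated. Library codes in the descriptions tied columns to samples, and 4 columns with another code were left out.

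Counts were rounded, filtered (filterByExpr), scaled by TMM (factors 0.779 and 0.803 for LPS, 1.05 to 1.13 for the others) and tested in edgeR 4.0.16 (limma 3.58.1, R 4.3.3) by quasi-likelihood, with 1 fit for all groups because LPS has 2 libraries (common biological coefficient of variation 14.5%). The SE is the log2 fold change over the square root of F. Zero counts allow up to 0.130 to 0.182 CPM by library (3 counts, counting error only). Length is that implied by counts and FPKM, and loess trends used a span of 0.4. The procedure was tested on simulated data.

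The 52 genes, their 9 role groups, the 139 other cell cycle genes and the marker lists (macrophage, erythroid, neutrophil, lymphocyte, epithelial, fibroblast and endothelial) were chosen with earlier results of these data known. Levels in each library are given for a fixed set of members and, per role group, for the member of highest mean FPKM and those with the largest called rise and fall in either comparison with LPS. Of the other cell cycle genes, up to 3 called rises and 3 called falls per comparison are named, with a mean of at least 5 FPKM. The values of 1 gene that this rule names are not reported here. Alternatives were fitting just the compared groups, blocking on replicate number, leaving out each library, a fold minimum, no filter or a stricter one (5 FPKM in 2 libraries), median-ratio scaling, DESeq2 1.42.0, limma on log2(FPKM + 1) and log2(FPKM + 0.1), a robust prior, removal of trends on length or on length and level, and leaving out both libraries that differ from their groups. A length trend with the median length of annotated coding transcripts (GENCODE) was added after seeing the data. Positions and promoters are RefSeq's on GRCm38.p6.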

Additional observations from a re-analysis of the deposited data

How the results depend on the processing

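Results turned most on gene length, on the scale and on 2 libraries, and with 2 LPS libraries the spread in that group is poorly known. Counts are given as higher and lower among the 52 genes, then as the other cell cycle genes called. With the length trend removed LPS+RCMNs versus LPS had 15, 3 and 40, and LPS versus control 2, 19 and 47. The shares of all genes called higher and lower were 18.8% and 21%, and 22.8% and 22%. With a surface on length and level removed they were 19, 2 and 44, then 2, 25 and 54, then 2, 4 and 5 in the comparison of LPS+RCMNs with control. Here the shares of all genes were 19.2% and 19.5%, 20.7% and 22.3%, and 4.26% and 3.76%. With annotated transcript lengths LPS versus control had 3 higher, beside 27.8% of all genes. On log2(FPKM + 1) they were 32, 3 and 89, then 2, 36 and 87, with 4 other genes called between LPS+RCMNs and control. Of all genes, 45.7% were higher and 17.8% lower, then 17.7% and 49.7%. The scale of log2(FPKM + 0.1) gave the same 32 and 3, 2 and 36, and 4. A fold minimum left 7, 2 and 20, then 1, 9 and 24, then 0, 0 and 0. It left 13.2% and 13.3%, 14.9% and 15.5%, and 1.75% and 0.882% of all genes. DESeq2 gave 6 lower and 11 other genes in LPS+RCMNs versus control, where it called 5.07% of all genes lower. Without both LPS+RCMNs replicate 2 and control replicate 1, LPS+RCMNs versus LPS had 17 lower, LPS versus control 15 higher, and LPS+RCMNs versus control 8, 14 and 35. Of all genes 37.1% were lower, 38.6% higher, and 14.8% higher and 10.6% lower in these comparisons. With each library left out in turn, LPS+RCMNs versus LPS had 16 to 20 higher, 5 to 14 lower and 69 to 92 others. LPS versus control had 5 to 11, 16 to 20 and 71 to 94, and LPS+RCMNs versus control 1 to 5, 1 to 12 and 0 to 14. Of all genes, LPS+RCMNs versus LPS had 22% to 31.9% higher and 24% to 32.8% lower. LPS versus control had 26.6% to 34.5% and 22.6% to 32.1% of them, and LPS+RCMNs versus control 1.88% to 7.47% and 0.835% to 4.06%. Among the 52 genes, all the upper ends of lower calls came without LPS+RCMNs replicate 2, which gave 19 and 14, 11 and 20, and 5, 12 and 14. In that fit the shares of all genes were 30.5% and 31.6%, 34.5% and 32.1%, and 7.47% and 4.06%. The replicate numbers did not pair the samples: deviations of same-numbered libraries correlated at -0.31 to 0.17, and not every library correlated best with its own number. A replicate block gave 17, 6 and 78, then 5, 18 and 84, then 1, 3 and 1. Of all genes it called 26% and 25.9%, 28.3% and 28.7%, and 2.44% and 1.37%. The replicate block with the length trend removed gave 2 lower and 27 other genes for LPS+RCMNs versus LPS, 2 higher and 40 others for LPS versus control, and 1 higher for LPS+RCMNs versus control. The same calls took in 15.1% of all genes as lower, 17.8% as higher and 2.64% as higher.

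Directions turned, with a call on either side, for 12 of the 52 genes. Outside the genes named by rule these were Cenpe (as low as -0.35 in LPS+RCMNs versus LPS and as high as 0.0439 in LPS versus control) and, for LPS versus control, Gmnn (down to -1.12), Ccne1 (to -0.38) and Mcm5 (to -0.42). Pcna was at 0.49 (length trend), 0.46 (length trend and block) and 0.87 (surface) in LPS+RCMNs against LPS. In LPS against control it was at -0.24, -0.21 and -0.68. Cenpa was at 0.15, 0.21 and 0.32, and -0.83, -0.91 and -1.01. Cenpf for LPS+RCMNs versus LPS was at -0.0406, -0.0301 and -0.26. Top2a there was at -0.0262 with the trend, -0.0349 with the block too and -0.0394 with annotated lengths. Birc5 was at 0.10 (surface) in LPS+RCMNs against LPS, and at -0.15, -0.19 and -0.34 in LPS against control. For LPS versus control the surface also turned Cdk4 to -0.125, Cdc45 to -0.11 and Rrm2 to -0.21, annotated lengths turned Rrm2 to -0.21, and FPKM turned Cdc45 to -0.23 and Rrm2 to -0.20 (-0.24 and -0.20 with 0.1). Apart from the construction of each fit, the cause was not tested. Of the 2070 values of named genes under an alternative, 1878 kept direction and side of the threshold, 97 lost the call, 65 gained one and 30 turned.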
